A study of Mus musculus with 9 samples.

Results

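S100 proteins are small calcium-binding proteins with paired EF-hand motifs, and 10 of their genes were followed in mouse mammary tumours from 3 transplantable cell lines. The genes were S100a1, S100a4, S100a6, S100a8, S100a9, S100a10, S100a11, S100a13, S100a14 and S100a16, taken as a list by name. All 10 were measured, among 19938 genes on the arrays, and all 10 lie on mouse chromosome 3 in the RefSeq annotation. Each gene was read from 1 feature (a set of probes summarised into a single value), the one with the highest mean where a gene had several.

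The data were 9 Affymetrix Mouse Gene 1.0 ST arrays, 3 each of tumour samples titled NDL, Met1 and SSM2. Cultured cells had been injected on both sides of female mice (FVB/NJ, age 6 to 8 weeks; strain given as FVB/N on the samples), and tumours were frozen at a width of 5 to 10 mm. The injected mammary fat pads were uncleared, so host mammary epithelium and stroma remained at the site. As background, NDL carries an activated ErbB2 transgene and Met1 carries the polyoma middle T antigen, each under the mouse mammary tumour virus promoter, while SSM2 is known as a hormone receptor-positive line. The labels name no allele or treatment that differed within a line. Each line is a single line, and nothing in the labels says that its 3 samples came from separate animals or tumours, so each p-value measures the spread between these samples, which may be technical. The series title concerns an ErbB2 tumour model for immunotherapy, and its design text asks how gene expression differs among tumours of the 3 lines.

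As background, S100 proteins act inside cells by binding partners such as annexins and myosin when calcium rises, and several are also released and act on receptors such as RAGE (Ager) and Tlr4. Their genes differ in the cells that use them. S100a8 and S100a9 together form calprotectin, an abundant protein of neutrophils and monocytes. S100a4 is known from fibroblasts, other mesenchymal cells and macrophages, and is also called fibroblast-specific protein or metastasin. S100a14, S100a16 and S100a1 are read here as epithelial, and S100a6, S100a10, S100a11 and S100a13 as broadly expressed.

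Arrays give no read depth, so precision here is limited by having 3 of them per line. The upper quartile of signal was 7.85 and 7.84 in NDL replicates 1 and 2 and between 7.98 and 8.09 in the other 7 arrays. Over all genes, which do not count as replicates, arrays of a line correlated at r from 0.947 to 0.995 and arrays of different lines at r from 0.891 to 0.949. Of 16 epithelial markers, 15 were higher in NDL than in Met1 and 16 lower in Met1 than in SSM2. The keratin gene Krt8 had log2 signals from 6.81 to 8.45 in Met1, from 11.85 to 12.30 in NDL and from 12.52 to 13.33 in SSM2, so markers of the labelled mammary tumour tissue were lowest in Met1. The 25th percentile of mean signal over all genes was 4.91, and differences from a group near that level have an uncertain size.

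Of the 10 S100 genes, 7 differed between at least 1 pair of lines in limma (adjusted p under 0.05), and S100a8, S100a9 and S100a13 differed between none. S100a4 was high in Met1 tumours alone, S100a6 was low in NDL tumours alone, S100a14 fell from SSM2 to NDL to Met1, and S100a10 fell from Met1 to SSM2 to NDL. S100a10 and S100a14 were the 2 genes that passed in all 3 contrasts. No share over all genes is available here for passing in at least 1 contrast or in all 3, so these 2 counts have no background beside them. Between NDL and Met1, 6 of 10 passed, 3 higher and 3 lower in NDL, where 19.1% of all genes passed (8.88% higher and 10.2% lower). Between NDL and SSM2, 4 of 10 passed, 1 higher and 3 lower in NDL, against 16.9% of all genes (9.35% higher and 7.52% lower). Between Met1 and SSM2, 3 of 10 passed, 2 higher and 1 lower in Met1, against 11.8% of all genes (7.1% higher and 4.71% lower). Using the other feature annotated to S100a11 brought the count between NDL and Met1 to 5. Leaving out NDL replicate 2 brought the count between NDL and SSM2 to 2. Leaving out SSM2 replicate 3 brought it to 6, and the count between Met1 and SSM2 to 5. The median difference over the 10 genes was -0.30, -0.59 and -0.24 in the 3 contrasts in that order, and 0.06, 0.09 and 0.04 over all genes. Arrays of the compared lines did not overlap for 7, 4 and 6 of the 10 genes, where 38.2%, 31.6% and 31.7% of all genes did not overlap. In the F-test over the 3 lines 5 of 10 passed, S100a4, S100a6, S100a10, S100a14 and S100a16, against 25.1% of all genes, and 8 passed without SSM2 replicate 3. The 3 contrasts share arrays pairwise, so their results are not independent of each other.

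**Figure D1:**
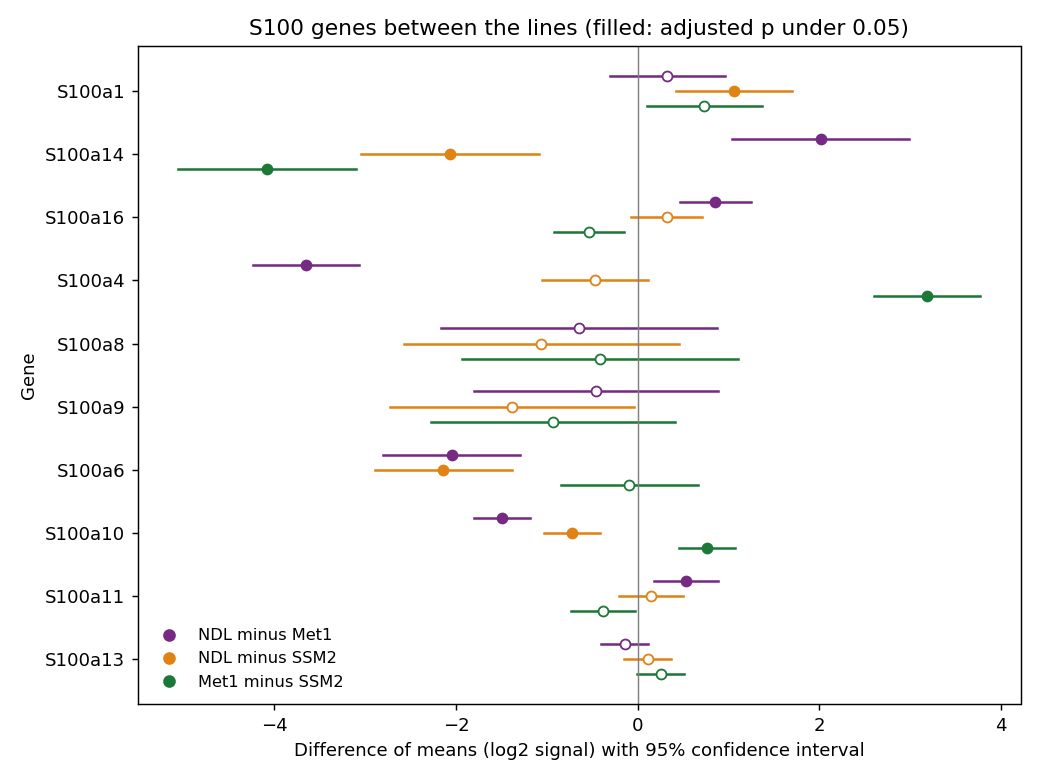
Differences of line means (log2 signal, horizontal axis) with 95% confidence intervals from limma for each S100 gene (vertical axis) in the 3 contrasts; filled points passed at an adjusted p under 0.05. S100a4 lies at -3.66 for NDL minus Met1 and 3.19 for Met1 minus SSM2, S100a14 at -4.08 for Met1 minus SSM2, and the intervals of S100a8 are wide and cross 0 in all 3 contrasts.

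**Figure D2:**
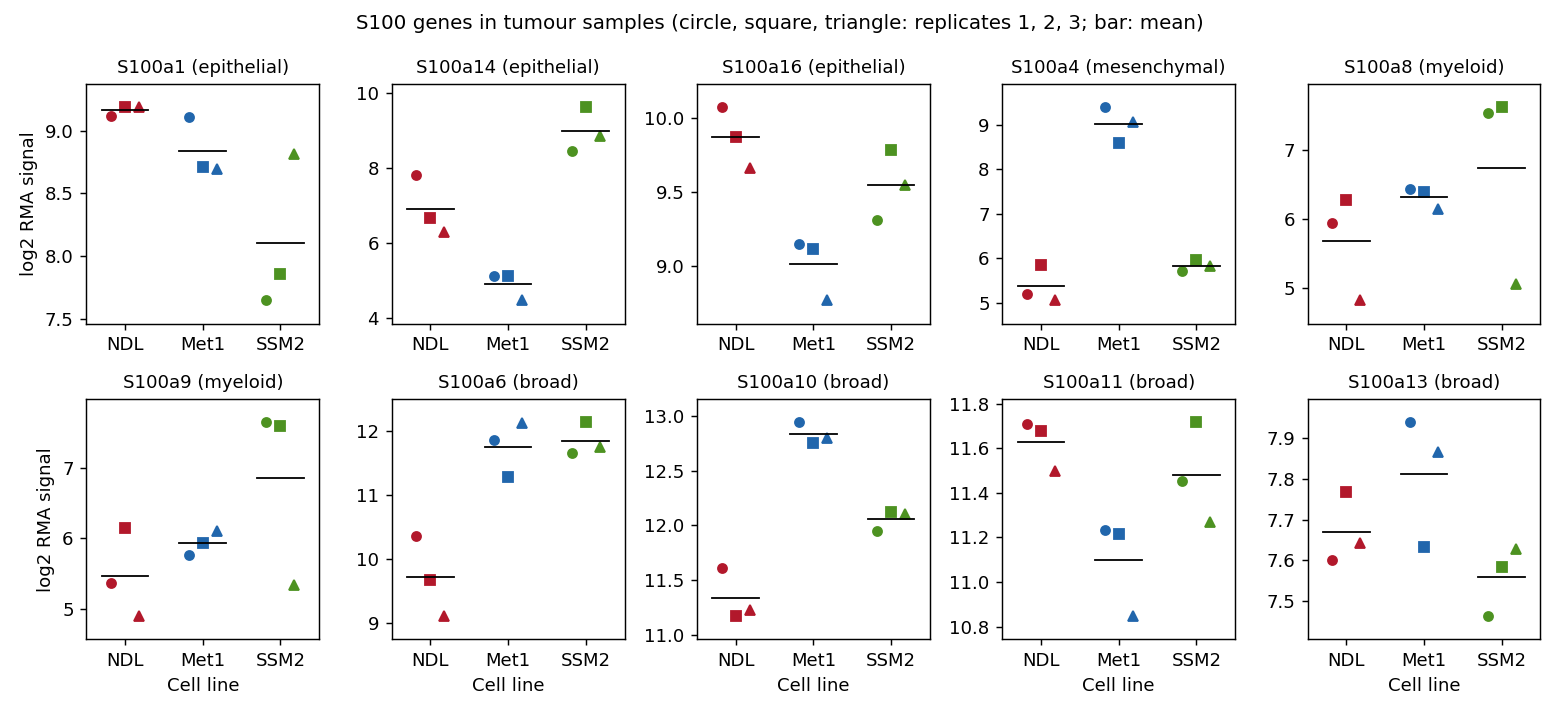
Log2 RMA signal (vertical axis, own scale in each panel) of the 10 S100 genes in 9 tumour samples by cell line (horizontal axis), with the role of each gene in its title. Symbols are single arrays and bars are means of 3: all Met1 arrays lie above the others for S100a4, and SSM2 replicate 3 lies far below its line's other arrays for S100a8 (5.06) and S100a9 (5.34).

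The regulatory sequence just around the annotated start is shown for 4 genes: S100a4 and S100a6, which have 1 gene between them on the chromosome and different patterns over the lines, and S100a8 and S100a9, which moved together over the arrays. Sequences are from RefSeq (GRCm38.p6), 90 bases before to 10 bases after the start, read 5′ to 3′ on the gene's strand, with any TATAAA in capitals. S100a4 is at chr3:90603680-90603779 (+), S100a6 at chr3:90612804-90612903 (+), S100a8 at chr3:90668981-90669080 (+) and S100a9 at chr3:90695712-90695811 (-).
S100a4: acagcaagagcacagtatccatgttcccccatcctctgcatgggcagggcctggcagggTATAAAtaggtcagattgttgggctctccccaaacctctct
S100a6: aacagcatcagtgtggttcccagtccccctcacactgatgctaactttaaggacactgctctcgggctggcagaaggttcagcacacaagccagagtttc
S100a8: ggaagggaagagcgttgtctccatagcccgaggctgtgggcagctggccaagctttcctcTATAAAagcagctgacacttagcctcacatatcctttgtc
S100a9: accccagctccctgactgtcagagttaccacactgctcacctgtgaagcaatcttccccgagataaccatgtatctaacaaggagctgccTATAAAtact

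TATAAA, the core of the TATA box, begins 31 bases before the start of S100a4 and 30 bases before that of S100a8, and at the annotated start itself in S100a9. The stretch of S100a6 holds none. RefSeq windows of 300 bases (250 before to 50 after a start) were matched for 8 of the 10 genes, all but S100a10 and S100a14. TATAAA, searched on both strands, lay in the windows of 3 of these 8 genes (S100a4, S100a8 and S100a9), and in 13.62% of all 32851 windows. TGANTCA, the letters of an AP-1 site, searched on both strands, lay in windows of 2 of the 8 genes (S100a11 and S100a16), and in 7.81% of all windows. A match of letters is a description and not a measured site.

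S100a4, read as the mesenchymal gene of the family, was high in all Met1 arrays. Its log2 signal was 9.41, 8.59 and 9.08 in the Met1 arrays. The NDL arrays stood at 5.20, 5.86 and 5.05, and the SSM2 arrays at 5.71, 5.96 and 5.82. The lowest Met1 array lay above every other array, while NDL and SSM2 overlapped. Met1 was 12.6-fold above NDL (NDL minus Met1 -3.66, SE 0.26, adjusted p = 6.43e-05) and 9.14-fold above SSM2 (Met1 minus SSM2 3.19, SE 0.26, adjusted p = 0.000203). NDL and SSM2 differed by -0.46 (95% interval -1.05 to 0.12, adjusted p = 0.226). In these bulk samples, a lower share of a cell type and less RNA per cell cannot be told apart.

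Mesenchymal markers moved only partly with S100a4. Of 11, 8 were lower in NDL than in Met1, and 6 were higher in Met1 than in SSM2, with 2 lower there. Between NDL and SSM2, where S100a4 did not pass, 1 was higher and 3 were lower in NDL. Snai2 and Fn1 had their highest means in SSM2. Snai2 had means of 5.66 in NDL, 5.75 in Met1 and 7.69 in SSM2, and Fn1 of 10.86, 12.62 and 13.24. Closer to S100a4, the N-cadherin gene Cdh2 was 5.46, 5.56 and 5.73 in NDL, 8.65, 8.96 and 8.56 in Met1 and 5.28, 5.20 and 5.11 in SSM2. The intermediate filament gene Vim had Met1 values between 13.16 and 13.36 and values between 11.28 and 11.92 elsewhere. Macrophage and monocyte markers, cells that also express S100a4, differed partly in the same directions, with 10 of 12 lower in NDL than in Met1. Between Met1 and SSM2, 5 of 12 were higher in Met1 and 1, the scavenger receptor gene Cd163, was lower (-2.94, adjusted p = 0.00353). The mean of the macrophage list was 8.32, 8.78 and 8.21 in NDL, 9.79, 9.71 and 10.04 in Met1 and 9.83, 8.996 and 8.39 in SSM2. SSM2 replicate 1 thus lay above Met1 replicates 1 and 2 for this list, but not for every marker in it. Cd163 was 9.01 in that array and 4.90, 4.89 and 6.44 in Met1, while Itgam was 8.87 in that array and 9.68, 9.62 and 10.01 in Met1. Of 10 fibroblast markers, 3 were higher and 2 lower in NDL than in Met1, and 2 were higher and 3 lower in Met1 than in SSM2. The list had means from 8.50 to 8.89 in NDL, from 8.21 to 9.06 in Met1 and from 8.81 to 10.36 in SSM2. The part of any of these cell types in the S100a4 signal was not tested.

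**Figure D3:**
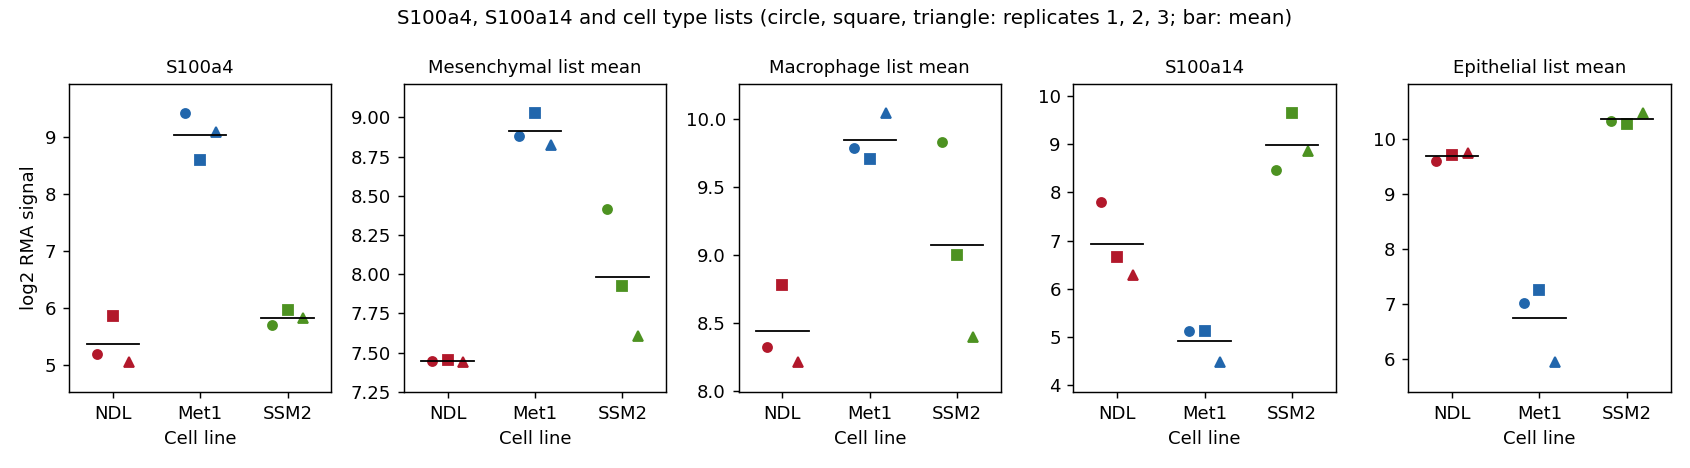
Log2 RMA signal (vertical axis, own scale in each panel) of S100a4 and S100a14 and mean log2 signal of the mesenchymal, macrophage and epithelial marker lists in 9 arrays by cell line (horizontal axis); symbols are arrays and bars are means of 3. All Met1 arrays lie above the other arrays for S100a4 and below them for S100a14 and the epithelial list, and the macrophage list mean runs from 8.39 to 9.83 in SSM2.

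S100a14, an S100 gene known from epithelia, had 3 separate levels. The SSM2 arrays stood at 8.47, 9.64 and 8.86. The NDL arrays were lower, at 7.81, 6.67 and 6.29. The Met1 arrays were lowest, at 5.11, 5.13 and 4.47, close to the 25th percentile of all genes, and no pair of lines overlapped. Met1 was 17.0-fold below SSM2 (Met1 minus SSM2 -4.08, SE 0.43, adjusted p = 0.000686), a size that depends on the background in Met1. NDL lay 4.05-fold above Met1 (2.02, SE 0.43, adjusted p = 0.0124) and 4.19-fold below SSM2 (-2.07, SE 0.43, adjusted p = 0.0136). The call between NDL and Met1 ended in 3 of 24 alternatives, among them that without Met1 replicate 3 (adjusted p = 0.0517) and the test against a 1.5-fold change (0.0888). The call between NDL and SSM2 ended in 2 of 24, without NDL replicate 2 (adjusted p = 0.0511) and in the 1.5-fold test (0.097).

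The mean of the epithelial marker list was 7.02, 7.24 and 5.93 in Met1, the line in which S100a14 was lowest too, against 9.58, 9.71 and 9.74 in NDL and 10.33, 10.27 and 10.46 in SSM2. Of the 16 epithelial markers, 2 were lower in NDL than in SSM2, Krt19 and the tight junction gene Cldn4, and 14 did not pass. Cldn4 came after Padi4 and Gipc2 among the 3 genes nearest to S100a14, a ranking made on these same arrays. Squamous markers were also lower in NDL than in SSM2, 6 of 13, and lower in Met1 than in SSM2, 6 of 13, and the list mean ran from 7.07 to 7.43 in SSM2, from 5.08 to 5.51 in NDL and from 4.92 to 5.63 in Met1. Whether squamous cells contributed to the S100a14 signal was not tested.

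S100a16, the neighbour of S100a14 on the chromosome, differed less. Its signal was 10.07, 9.87 and 9.66 in NDL and 9.15, 9.11 and 8.77 in Met1, with no overlap. The SSM2 arrays lay at 9.31, 9.78 and 9.54, overlapping NDL and above all Met1 arrays. NDL was 1.81-fold above Met1 (0.86, SE 0.17, adjusted p = 0.00915). This call ended in 2 of 24 alternatives. These were the test against a 1.5-fold change (adjusted p = 0.634) and the fit without NDL replicates 1 and 2 together, with a difference of 0.65. Met1 minus SSM2 was -0.54 (95% interval -0.92 to -0.15, adjusted p = 0.0835), and NDL minus SSM2 was 0.32 (-0.07 to 0.71, adjusted p = 0.212).

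S100a1, known for regulating calcium release in muscle and read here as epithelial, had its lowest mean in SSM2 (8.11), where the mean of the epithelial list was highest. It was 9.12, 9.19 and 9.19 in NDL and 9.11, 8.71 and 8.69 in Met1. The SSM2 arrays were 7.65, 7.86 and 8.82, with replicate 3 apart from the other two and inside the Met1 range. NDL was 2.09-fold above SSM2 (1.06, SE 0.28, adjusted p = 0.0341). This call ended in 12 of 24 alternatives, among them those without NDL replicate 1 or 2, Met1 replicate 1, 2 or 3, or SSM2 replicate 1 or 2. Met1 minus SSM2 was 0.73 (95% interval 0.10 to 1.37, adjusted p = 0.143) and reached 1.09 without SSM2 replicate 3 (adjusted p = 0.00383). In RefSeq the spans of S100a1 and S100a13 share 98 bases on opposite strands.

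S100a6, calcyclin, which is found in many proliferating cells and in fibroblasts, was low in NDL tumours. Its NDL values were 10.37, 9.67 and 9.11. Met1 stood at 11.86, 11.29 and 12.13, and SSM2 at 11.66, 12.14 and 11.76. All NDL arrays lay below all others, and Met1 and SSM2 overlapped. NDL was 4.13-fold below Met1 (-2.05, SE 0.33, adjusted p = 0.00349) and also 4.41-fold below SSM2 (-2.14, SE 0.33, adjusted p = 0.00357). Met1 minus SSM2 was -0.09 (95% interval -0.85 to 0.66, adjusted p = 0.932).

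S100a10, which pairs with annexin A2 at the plasma membrane and does not itself bind calcium, had 3 separate levels. Met1 was highest, at 12.94, 12.75 and 12.80. SSM2 followed at 11.95, 12.12 and 12.11, and NDL was lowest at 11.61, 11.18 and 11.23. No pair of lines overlapped for this gene. NDL was 2.81-fold below Met1 (-1.49, SE 0.14, adjusted p = 0.000219) and 1.65-fold below SSM2 (-0.72, SE 0.14, adjusted p = 0.00866). The difference of Met1 from SSM2 was 1.70-fold (0.77, SE 0.14, adjusted p = 0.00755). The call between NDL and Met1 held in 24 of 24 alternatives, and each of the others ended in 1, the test against a 1.5-fold change (adjusted p = 1).

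Some partners of these proteins were also lower in NDL, Anxa2 and Ahnak against both other lines and Anxa11 against Met1. Anxa2, annexin A2, was 10.90, 10.75 and 10.33 in NDL, 11.63, 11.76 and 12.18 in Met1 and 11.56, 11.36 and 11.74 in SSM2. NDL was below Met1 by -1.20 (adjusted p = 0.00392) and below SSM2 by -0.89 (adjusted p = 0.0178), while Met1 minus SSM2 was 0.30 and did not pass (adjusted p = 0.445). Ahnak, a large scaffold protein that binds the complex of S100a10 and annexin A2, was 8.56, 8.05 and 8.58 in NDL and between 9.39 and 9.93 in the other 6 arrays. It differed by -1.41 from Met1 (adjusted p = 0.00123) and by -1.31 from SSM2 (adjusted p = 0.00218). Anxa11, a binding partner of S100a6, was lower in NDL than in Met1 (-1.26, adjusted p = 0.0135), though this call ended without NDL replicate 1 or Met1 replicate 1 (adjusted p 0.0519 and 0.0549). Its SSM2 arrays spread from 7.54 in replicate 3 to 8.60 and overlapped NDL, and NDL minus SSM2 was -0.32 and did not pass (adjusted p = 0.414).

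**Figure D4:**
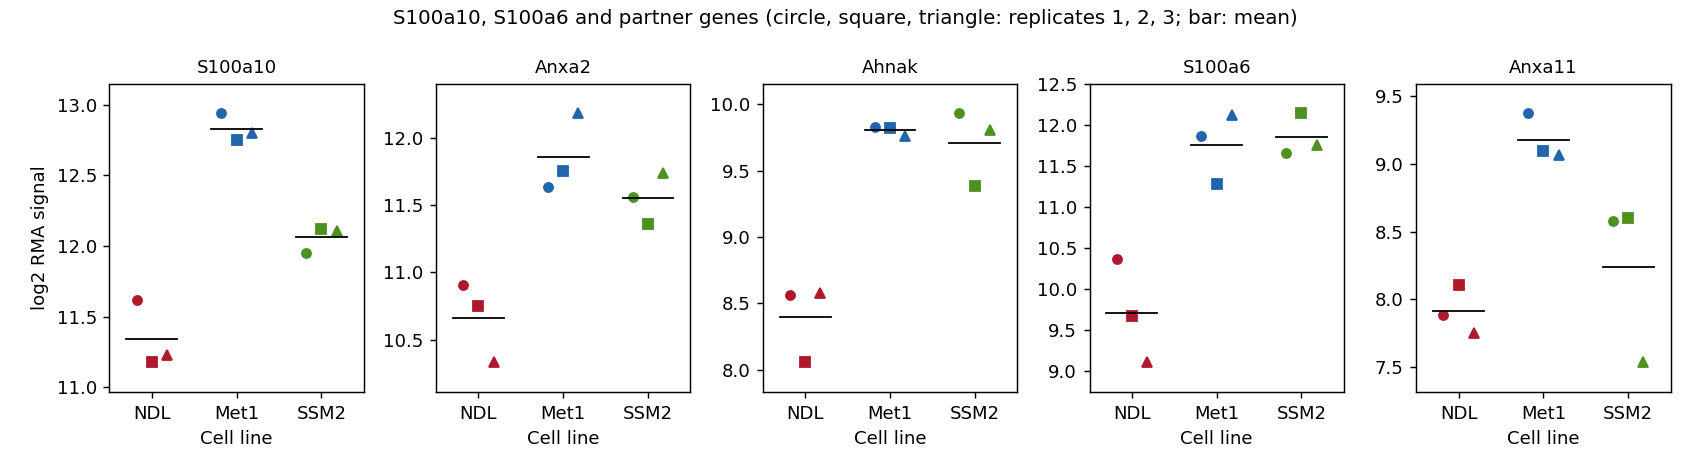
Log2 RMA signal (vertical axis, own scale in each panel) of S100a10, its partners Anxa2 and Ahnak, S100a6 and its partner Anxa11 in 9 arrays by cell line (horizontal axis); symbols are arrays and bars are means of 3. All NDL arrays lie below all other arrays for S100a10, Anxa2, Ahnak and S100a6, whereas Anxa11 in SSM2 replicate 3 (7.54) lies below the NDL arrays.

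Among all 12 annexins measured, 1 was higher and 4 lower in NDL than in Met1, and again 1 was higher and 4 lower against SSM2. The median difference of the annexins was -0.35 and -0.45 in these contrasts and -0.03 between Met1 and SSM2, where 1 was lower in Met1. Anxa9 was the higher annexin in each contrast (2.33 against Met1, 2.61 against SSM2). Anxa5 (-2.12 and -1.32) and Anxa4 (-0.65 and -0.76) were lower than in Met1 and SSM2, and Anxa8 was lower in NDL (-4.30) and in Met1 (-3.47) than in SSM2. Of 12 other partners, 3 were lower and none higher in NDL than in Met1 in limma: Ahnak, Sugt1 (-1.46), a chaperone partner of S100a6, and Ppfibp1 (-1.27), a liprin bound by S100a4. Against SSM2, 3 were lower, Ahnak, Ppfibp1 (-1.30) and Fgf1 (-0.71), the growth factor released with S100a13, and none higher. Between Met1 and SSM2, Fgf1 alone passed (-0.93). The median difference of these partners was -0.20, -0.61 and -0.04 in the 3 contrasts, with medians over all genes as given above. The Ppfibp1 calls ended in 6 of 24 alternatives in each contrast, among them those without NDL replicate 1 (adjusted p 0.0537 and 0.0586), without any Met1 replicate for Met1 (0.0577 to 0.0806) and without SSM2 replicate 1 or 2 for SSM2 (0.0722 and 0.0593). For Fgf1 the call between NDL and SSM2 ended when NDL replicate 1 (adjusted p = 0.0742), NDL replicate 2 (0.0568) or SSM2 replicate 1 (0.0653) was left out. Myh9, the myosin heavy chain bound by S100a4, stood between 10.49 and 11.13 in all 9 arrays and passed in no contrast.

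S100a11, known for binding annexin A1, was 11.71, 11.68 and 11.50 in NDL, 11.23, 11.21 and 10.85 in Met1 and 11.45, 11.72 and 11.27 in SSM2. NDL and Met1 did not overlap. NDL was 1.44-fold above Met1 (0.53, SE 0.15, adjusted p = 0.0443), and this call ended in 15 of 24 alternatives, among them those without NDL replicate 1 or 2, Met1 replicate 1, 2 or 3, or SSM2 replicate 1. Met1 minus SSM2 was -0.38 (95% interval -0.73 to -0.03, adjusted p = 0.171) and NDL minus SSM2 was 0.15 (-0.20 to 0.50, adjusted p = 0.504). The arrays hold 2 features annotated to this gene, and the other gave 0.47 between NDL and Met1 (adjusted p = 0.0746). Only that other feature is numbered between the features of the chromosomal neighbours Tchhl1 and S100a10. The feature used here is numbered close to that of Cdh2 and away from the features of these neighbours. Which locus the feature used here reads was not tested. RefSeq lists a pseudogene of S100a11, so its signal may include a near-identical copy. Anxa1, its partner, passed in no contrast.

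S100a13, which takes part in the release of Fgf1 and interleukin-1 alpha, varied least of the 10 genes. It ran from 7.60 to 7.77 in NDL, from 7.63 to 7.94 in Met1 and from 7.46 to 7.63 in SSM2. The widest difference was Met1 minus SSM2, 0.26 (95% interval -0.002 to 0.51, adjusted p = 0.215). NDL minus Met1 was -0.14 (-0.40 to 0.12, adjusted p = 0.418).

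The myeloid pair S100a8 and S100a9 was spread widely among the arrays of SSM2. S100a8 was 5.95, 6.28 and 4.82 in NDL, 6.44, 6.40 and 6.15 in Met1 and 7.54, 7.63 and 5.06 in SSM2. S100a9 was 5.37, 6.15 and 4.90 in NDL, 5.76, 5.93 and 6.10 in Met1 and 7.64, 7.59 and 5.34 in SSM2. Replicates 1 and 2 of SSM2 were the highest of the 9 arrays for both genes, and NDL replicate 3 was the lowest for both. Over the arrays, with each gene centred on its mean, the root mean square difference between the pair was 0.32, against an SD of 0.95 for each gene.

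No contrast passed for either gene. NDL minus SSM2 was -1.06 for S100a8 (SE 0.66, 95% interval -2.58 to 0.46, adjusted p = 0.281) and -1.39 for S100a9 (SE 0.59, -2.73 to -0.04, adjusted p = 0.136). Met1 minus SSM2 was -0.41 for S100a8 (-1.93 to 1.10, adjusted p = 0.818) and -0.93 for S100a9 (-2.27 to 0.42, adjusted p = 0.426). NDL minus Met1 was -0.65 for S100a8 (-2.16 to 0.87, adjusted p = 0.538) and -0.46 for S100a9 (-1.80 to 0.89, adjusted p = 0.626). These values against SSM2 depended on SSM2 replicate 3. Without it NDL minus SSM2 for S100a8 was -1.90 (adjusted p = 0.014), and S100a9 was lower in NDL by -2.14 (adjusted p = 0.00417) and in Met1 by -1.68 (adjusted p = 0.0132). Met1 minus SSM2 for S100a8 moved to -1.26 and still did not pass (adjusted p = 0.0759).

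Some markers of neutrophils, and lists for other host cells, were uneven over the SSM2 arrays too. Csf3r, the receptor for granulocyte colony-stimulating factor, was 8.25, 6.97 and 5.73 in SSM2, and lay between 5.78 and 6.59 in the other 6 arrays. Cxcr2, a chemokine receptor of neutrophils, was 7.80, 6.78 and 4.30 in SSM2 and between 3.86 and 4.58 elsewhere. Ly6g, a defining neutrophil marker, stood at 5.37, 4.61 and 4.30 in SSM2 and between 4.09 and 4.42 elsewhere, so only SSM2 replicate 1 lay above the 25th percentile of all genes. The mean of the 15 neutrophil markers was 6.58, 5.59 and 4.95 in SSM2, 5.21, 5.26 and 5.32 in Met1 and 5.28, 5.35 and 5.03 in NDL. Replicate 3 was thus the lowest SSM2 array for the list as for S100a8 and S100a9, whereas replicates 1 and 2, close for the S100 pair, stood 0.99 apart in list mean. Not every marker had this order. Camp (5.54, 5.30 and 5.49), Elane (5.06, 4.90 and 5.05), Mpo (5.18, 4.72 and 4.92) and Ngp (4.88, 3.44 and 3.55) were lowest in SSM2 replicate 2. Of the 15 markers, 2 were higher in NDL than in Met1, the antimicrobial genes Ltf (3.07) and Camp (0.39), and Ltf was higher than in SSM2 too (2.55), contrasts in which S100a8 and S100a9 did not pass. Ltf is also a milk protein of mammary epithelium. In SSM2 the macrophage and monocyte list, cells that also make calprotectin, had means of 9.83, 8.996 and 8.39. Replicate 3 was the lowest SSM2 array for the fibroblast list (10.36, 9.52 and 8.81), the adipocyte list (7.71, 7.13 and 5.66), the endothelial list (7.84, 7.50 and 7.13) and the T and NK cell list (5.87, 5.27 and 5.07) as well. The part of any of these cell types in the S100a8 and S100a9 signal was not tested.

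**Figure D5:**
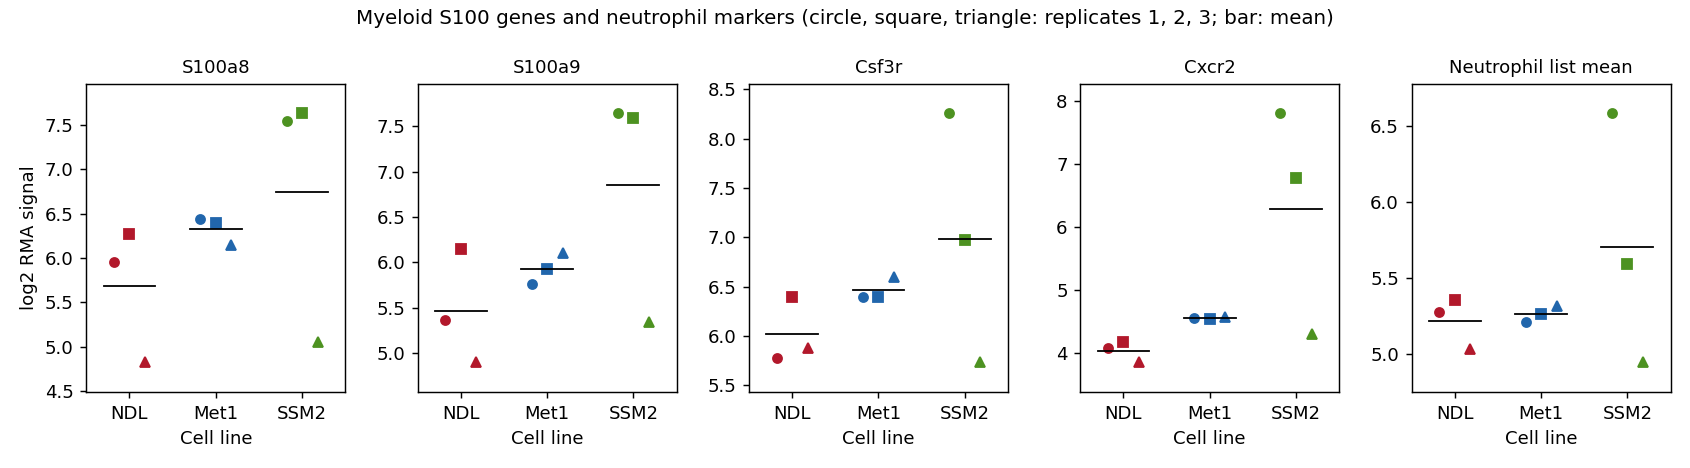
Log2 RMA signal (vertical axis, own scale in each panel) of S100a8, S100a9 and the neutrophil receptors Csf3r and Cxcr2, and mean log2 signal of the neutrophil list, in 9 arrays by cell line (horizontal axis); symbols are arrays and bars are means of 3. SSM2 replicate 3 is the lowest SSM2 array in every panel, and SSM2 replicates 1 and 2 are the highest arrays for S100a8 (7.54 and 7.63).

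Receptors and sensors of released S100 proteins passed in both directions. Of 9 measured, 1 was lower and none higher in NDL than in Met1 in limma, 2 were higher and 3 lower in NDL than in SSM2, and 1 was lower in Met1 than in SSM2. Their median difference was -0.58, -0.75 and 0.01 in the 3 contrasts. Ager, the RAGE receptor, lay between 5.96 and 6.55 in all 9 arrays and passed in no contrast. Tlr4, a receptor for S100a8 and S100a9, was 5.40, 5.63 and 7.16 in NDL, 6.72, 7.35 and 7.21 in Met1 and 8.24, 6.81 and 7.33 in SSM2, and did not pass. Its co-receptor Ly96 was lower in NDL than in Met1 (-1.18, adjusted p = 0.0431) and SSM2 (-2.20, adjusted p = 0.00353). The call against Met1 ended in 11 of 23 alternatives, among them every fit with 1 array left out except those without NDL replicate 3 or SSM2 replicate 1. Cd14, which presents ligands to Tlr4, was above SSM2 in NDL (1.89, adjusted p = 0.0379). This call ended without NDL replicate 1 or 2 or any Met1 replicate.

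The surface receptors Bsg, Nptn and Alcam completed the calls. Bsg, also called CD147 and bound by S100a9, was higher in NDL than in SSM2 (0.68, adjusted p = 0.0188). Nptn, bound by S100a8, was below SSM2 in NDL (-0.75, adjusted p = 0.0402). The Bsg call ended without NDL replicate 1 or SSM2 replicate 1 or 2, and the Nptn call ended in each fit with 1 array left out except that without NDL replicate 3. Alcam was lower than in SSM2 in NDL (-2.78, adjusted p = 0.0021) and in Met1 (-2.20, adjusted p = 0.00738). Cd36 and the adaptor Myd88 passed in no contrast.

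Of 6 other S100 genes, S100b passed, and so did S100pbp, which is not itself an S100 gene. S100b, an S100 gene of glia and other cells, was 6.44, 5.89 and 5.87 in NDL and between 4.79 and 5.20 in the other 6 arrays. It was higher in NDL than in Met1 (1.07, adjusted p = 0.0039) and SSM2 (1.11, adjusted p = 0.00415), groups that lay near the 25th percentile of all genes. The gene S100pbp encodes an S100-binding nuclear protein and was lower in NDL than in Met1 (-0.86, adjusted p = 0.0156), and the call ended without NDL replicate 1 (0.0595) or Met1 replicate 2 (0.0639). S100a3, S100a5, S100a7a, S100g and S100z passed in no contrast, nor did S100a2, which was looked at after its values were seen. Of 5 measured fused-type genes of the family (Flg2, Hrnr, Rptn, Tchh and Tchhl1), none passed in any contrast in limma.

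Along the chromosome, genes with different levels over the lines lay side by side. S100a4 and S100a6 flank S100a5, which lay between 4.94 and 5.45 in all 9 arrays. Next to S100a4 on its other side, S100a2 had line means of 4.69 in NDL, 4.70 in Met1 and 4.74 in SSM2. S100a13 and S100a14 are adjacent, and the first passed in no contrast where the second passed in all. Beyond S100a1, the non-S100 gene Chtop was lower in NDL than in Met1 (-0.49, adjusted p = 0.0121), and Snapin passed in no contrast.

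For each S100 gene that passed the F-test, the 3 other genes with the smallest root mean square difference over the 9 arrays, after centring, were taken from all genes outside the family. For S100a4 (SD over the arrays 1.75) they were Ttyh2 (0.35), Bmp2 (0.39) and Ptx3 (0.40). For S100a6 (SD 1.12) they were the collagen prolyl hydroxylase gene P4ha2 (0.21), Grb14 (0.33) and Tnfrsf12a (0.35). For S100a10 (SD 0.66) they were Abcc1, Rab31 and Spata7 (0.16 to 0.18). For S100a14 (SD 1.85) they were Padi4 (0.54), Gipc2 (0.64) and Cldn4 (0.685), and for S100a16 (SD 0.42) Dusp28, Nop53 and Ssbp4 (0.11 to 0.14).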

How the data were processed

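The authors deposited log2 values, for which the submitters' processing notes name RMA and oligo 1.40.2. RMA as such includes a background correction and a quantile normalisation. The labels' protocols give an RNA kit made for fixed tissue (miRNeasy FFPE), used on the frozen samples, and an input of 100 ng. Genome build and scan dates: not given in the sources used here. Of 35556 features, 21789 had 1 gene symbol in the platform annotation, 1621 several and 12146 none; names were updated through RefSeq GRCm38.p6 (21698 matched). The feature with the highest mean stood for each of 19938 genes, with no filter on signal.

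The 9 arrays were fitted in limma 3.58.1 (R 4.3.3) with lmFit and eBayes, on the deposited log2 values, with 6 residual and 2.42 prior degrees of freedom. The 3 two-sided contrasts and the F-test were each adjusted by Benjamini-Hochberg over all genes, and a gene was called where this p was below 0.05. Errors are standard errors of the model, and intervals are 95% and not adjusted.

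Named were all members, other family genes, receptors, called partners and annexins with the largest differences, markers needed beside a member, nearest genes by centred root mean square difference, and chromosomal neighbours. Anxa1, Anxa4, Cd163, Csf3r, Cxcr2, Myh9 and S100a2 were picked after their values were seen. The members and lists were chosen with earlier results of these data known. Alternatives covered filters, scaling, variance model, array weights, features, thresholds, the replicate block, and arrays left out; using the other S100a11 feature was added after seeing the data. The procedure was tested on simulated data. Figures used matplotlib 3.10.9.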

Additional observations from a re-analysis of the deposited data

How the results depend on the processing

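The member differences kept their direction and their side of the threshold in 669 of 714 comparisons with an alternative; 36 calls ended, 6 were gained and 3 uncalled differences changed sign. The sign changes were between Met1 and SSM2, for S100a6 (range -0.28 to 0.14 with 1 array left out, positive without Met1 replicate 2 or, at 0.050, without SSM2 replicate 2) and S100a8 (range -1.26 to 0.031, positive without SSM2 replicate 2). The cause was not tested. S100a4 and S100a6 kept every call in all alternatives run. Of the 10 members, a test against a 1.5-fold change (treat) left 3 between NDL and Met1 and 1 between NDL and SSM2. Without NDL replicates 1 and 2, 3 passed between NDL and Met1, with the lone NDL array assumed to vary like the other lines, and array weights gave 5 between Met1 and SSM2. With 1 array left out, the counts ranged from 4 to 6 between NDL and Met1, 2 to 6 between NDL and SSM2, 3 to 5 between Met1 and SSM2 and 4 to 8 in the F-test.

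Deviations from the line mean in arrays with the same replicate number correlated at r from -0.35 to 0.29. With 3 arrays per line, these values do not settle whether replicate numbers pair the samples. With the number as a block, 6, 3 and 3 members passed in the contrasts in the order above and 6 in the F-test, and S100a1 between NDL and SSM2 had an adjusted p = 0.0566. Counts over all genes, 3814, 3364 and 2356, were 871, 644 and 542 with treat. Between NDL and Met1 they ran from 2371 to 6631 with 1 array left out. Between NDL and SSM2 they ran from 1873 to 7018, and were 1755 in a fit of those lines alone. Both upper ends came without NDL replicate 3, and the next highest counts were 4250 and 3199, each without SSM2 replicate 3. Between Met1 and SSM2 the counts over all genes were 4007 with array weights, 1360 without Met1 replicate 1 and 1436 without Met1 replicate 2. A filter at the median signal removed S100a8 and S100a9. Among partner and receptor calls, 78 of 666 comparisons ended the call.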
